A study of Mus musculus with 54 samples.

Results

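The genes described here are 37 genes of meiotic recombination and the synaptonemal complex, taken by symbol from tables of 26264 genes each for testis and ovary of adult mice. The 37 were all found in both tables. First-generation (F1) mice were exposed to treated water from 8.5 days post-coitum, before their birth, until sampling. In both generations the males were 10 weeks old at sampling and the females 8 weeks old. Control water carried 0.001% ethanol. Dose 1 water carried ibuprofen at 11.3 ng/L, its metabolite 2-hydroxyibuprofen at 90 ng/L, the anti-inflammatory drug diclofenac at 22.5 ng/L and ethinyl-estradiol, a synthetic estrogen, at 2.25 ng/L. Dose 2 water carried the same compounds at 113, 225, 112 and 45 ng/L. Second-generation (F2) mice, whose own treatment is labelled as none, had 2 control parents (the control parents group), a mother from dose 1 or dose 2 with a control father (mother dose 1, mother dose 2), a father from dose 1 or dose 2 with a control mother (father dose 1, father dose 2), or both parents from dose 2 (both parents dose 2). Each of the 9 groups per tissue had 3 libraries, called A, B and C. The labels give no strain and do not say that the libraries of a group came from separate litters, so a p-value here speaks only of the spread among these libraries, which may be technical. The code of a cross was read with the male first, as in the sample titles, which the table headers do not state.

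Meiosis pairs homologous chromosomes and exchanges DNA between them. Cohesins and HORMA-domain proteins build a chromosome axis, programmed double-strand breaks are made on it, and strand exchange with the homologue turns some breaks into crossovers while the synaptonemal complex holds the axes together. In the male, spermatocytes enter this process throughout adult life, so the testis always contains cells in meiotic prophase. In the female, oocytes pass through pairing and exchange before birth and then arrest late in prophase. The adult ovary therefore contains few or no cells in the earlier stages, where those steps take place.

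Total counts per library were 31835494 to 46432282 in testis (median 37717087) and 35642474 to 101817720 in ovary (median 43773645). Levels are in CPM, the counts of a gene scaled to the size of its library, and the libraries of each tissue were scaled apart from those of the other. The tissue labels were checked on marker genes. The summed level of 10 round spermatid markers was 2333 to 3164 CPM in testis and 0.857 to 2.14 CPM in ovary, and that of 10 oocyte markers was 4.72 to 9.09 CPM in testis and 243 to 596 CPM in ovary. In whole-tissue RNA, fewer cells of a type and less RNA per cell cannot be told apart.

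In F2 testis, 7 of the 37 genes rose in at least 1 cross with a dosed parent, and 0 fell. They were Sycp1 and Syce2 of the synaptonemal complex, the axis protein gene Hormad1, the recombination gene Tex15, the crossover genes Msh4 and Tex11, and Meioc, which maintains the meiotic programme. Their log2 fold changes, where called, were 0.29 to 0.71, equal to 1.23-fold to 1.64-fold. The share of all genes called in at least 1 cross was not computed, so shares are given for each cross. The father dose 2 cross had 6 of the 37 genes called higher by edgeR's quasi-likelihood test (adjusted p under 0.05), which is 16.2% of them, beside 2.94% of the 19241 genes tested, and 0 called lower, beside 2.39%. The cross of both parents had 4 called higher (10.8%, beside 1.78%) and 0 lower (beside 2.81%). Of the other crosses, father dose 1 had 3 higher (8.11%, beside 2.22%) and 0 lower (beside 1.75%). The mother dose 2 cross had 2 higher (5.41%, beside 0.8%) and 0 lower (beside 0.899%). The mother dose 1 cross had 0 called either way by edgeR, beside 0.4% of all genes higher and 0.416% lower, and 4 of the 37 had an unadjusted p under 0.05 there (10.8%, beside 17.9% of all genes). DESeq2 called 1 of the 37 in that cross (2.7%, beside 3.74% of all genes). The cross comparisons all use the same 3 control parents libraries, so their counts are not independent of each other.

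Over all 37 genes, the called ones included, log2 fold changes lay mostly above 0 in these crosses. The number of the 37 with a log2 fold change above 0 was 26 in mother dose 1, 30 in mother dose 2, 31 in both father crosses and 32 in both parents dose 2, while 48.5 to 52.1% of all genes lay above 0. The median over the 37 was 0.12 in both dose 1 crosses, 0.14 with a dose 2 mother and 0.16 in the remaining crosses, and the median over all genes was between -0.01 and 0.01. Genes with all 3 cross libraries above all 3 controls numbered 10 of 37 in both parents dose 2 (27%, beside 9.3% of all genes) and 10 in father dose 2 (27%, beside 14.6%). They numbered 9 in father dose 1 (24.3%, beside 11.4%), 8 in mother dose 2 (21.6%, beside 11%) and 9 in mother dose 1 (24.3%, beside 13.2%). In the other direction, genes with all cross libraries below all controls numbered 4 in mother dose 1 (10.8%, beside 12%), 1 in mother dose 2 (2.7%, beside 10.7%) and 1 in father dose 1 (2.7%, beside 11.6%). They numbered 0 in father dose 2 (beside 14.2%) and 0 in both parents dose 2 (beside 10.6%).

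These counts rest on individual control libraries. Without control parents library A, or without library C, 0 of the 37 genes were called in each of the 5 crosses. Without library B, 14 were called in father dose 2 (13 of them higher), 13 in both parents dose 2 (12 higher), 12 in mother dose 2 (11 higher), 10 in father dose 1 (9 higher) and 3 in mother dose 1. The calls over all genes moved the same way: in the 4 crosses with calls among the 37, they numbered 40 to 285 without A or C and 1595 to 3122 without B, against 327 to 1026 with the 3 control libraries. Library by library, the level was below the mean of the 18 F2 testis libraries for 31 of the 37 genes in control A, 29 in control C and 21 in control B. Control C held the lowest of the 18 values for 13 of the 37.

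Libraries of the crosses mattered too. In mother dose 2, leaving out any 1 of its libraries left 0 called. In father dose 1, leaving out B or C left 0 and leaving out A left 2. In father dose 2, leaving out A or B left 0 and leaving out C left 5. In both parents dose 2, leaving out A left 3, B 1 and C 4. The share of all genes called in each of these refits is not given beside them. The counts thus show only how far the calls rest on single libraries.

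Markers of other testis cells differed between these groups as well. The summed level of 8 Leydig cell markers was 1455 to 1556 CPM in control parents and 847 to 1413 CPM in the crosses, with no overlap. The sum of 10 Sertoli cell markers was 1243, 973 and 1268 CPM in control parents A, B and C and 897 to 1166 CPM in the crosses. That of 8 macrophage markers was 110 to 115 CPM against 79.1 to 107 CPM, also with no overlap. The sum of 6 endothelial markers was 28.7 to 32.5 CPM in control parents and 23.5 to 28.1 CPM in the crosses, again with no overlap. That of 6 peritubular markers was 366 to 420 against 327 to 403 CPM, with overlap. The sum of 10 spermatogonial markers was 218 to 234 CPM in control parents and 223 to 256 CPM in the crosses, and that of 8 late spermatocyte markers was 4725 to 4884 against 4548 to 4963 CPM. No marker of these lists was at 0 in all libraries of an F2 testis group. Their part in the results on the 37 genes was not tested.

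**Figure D1:**
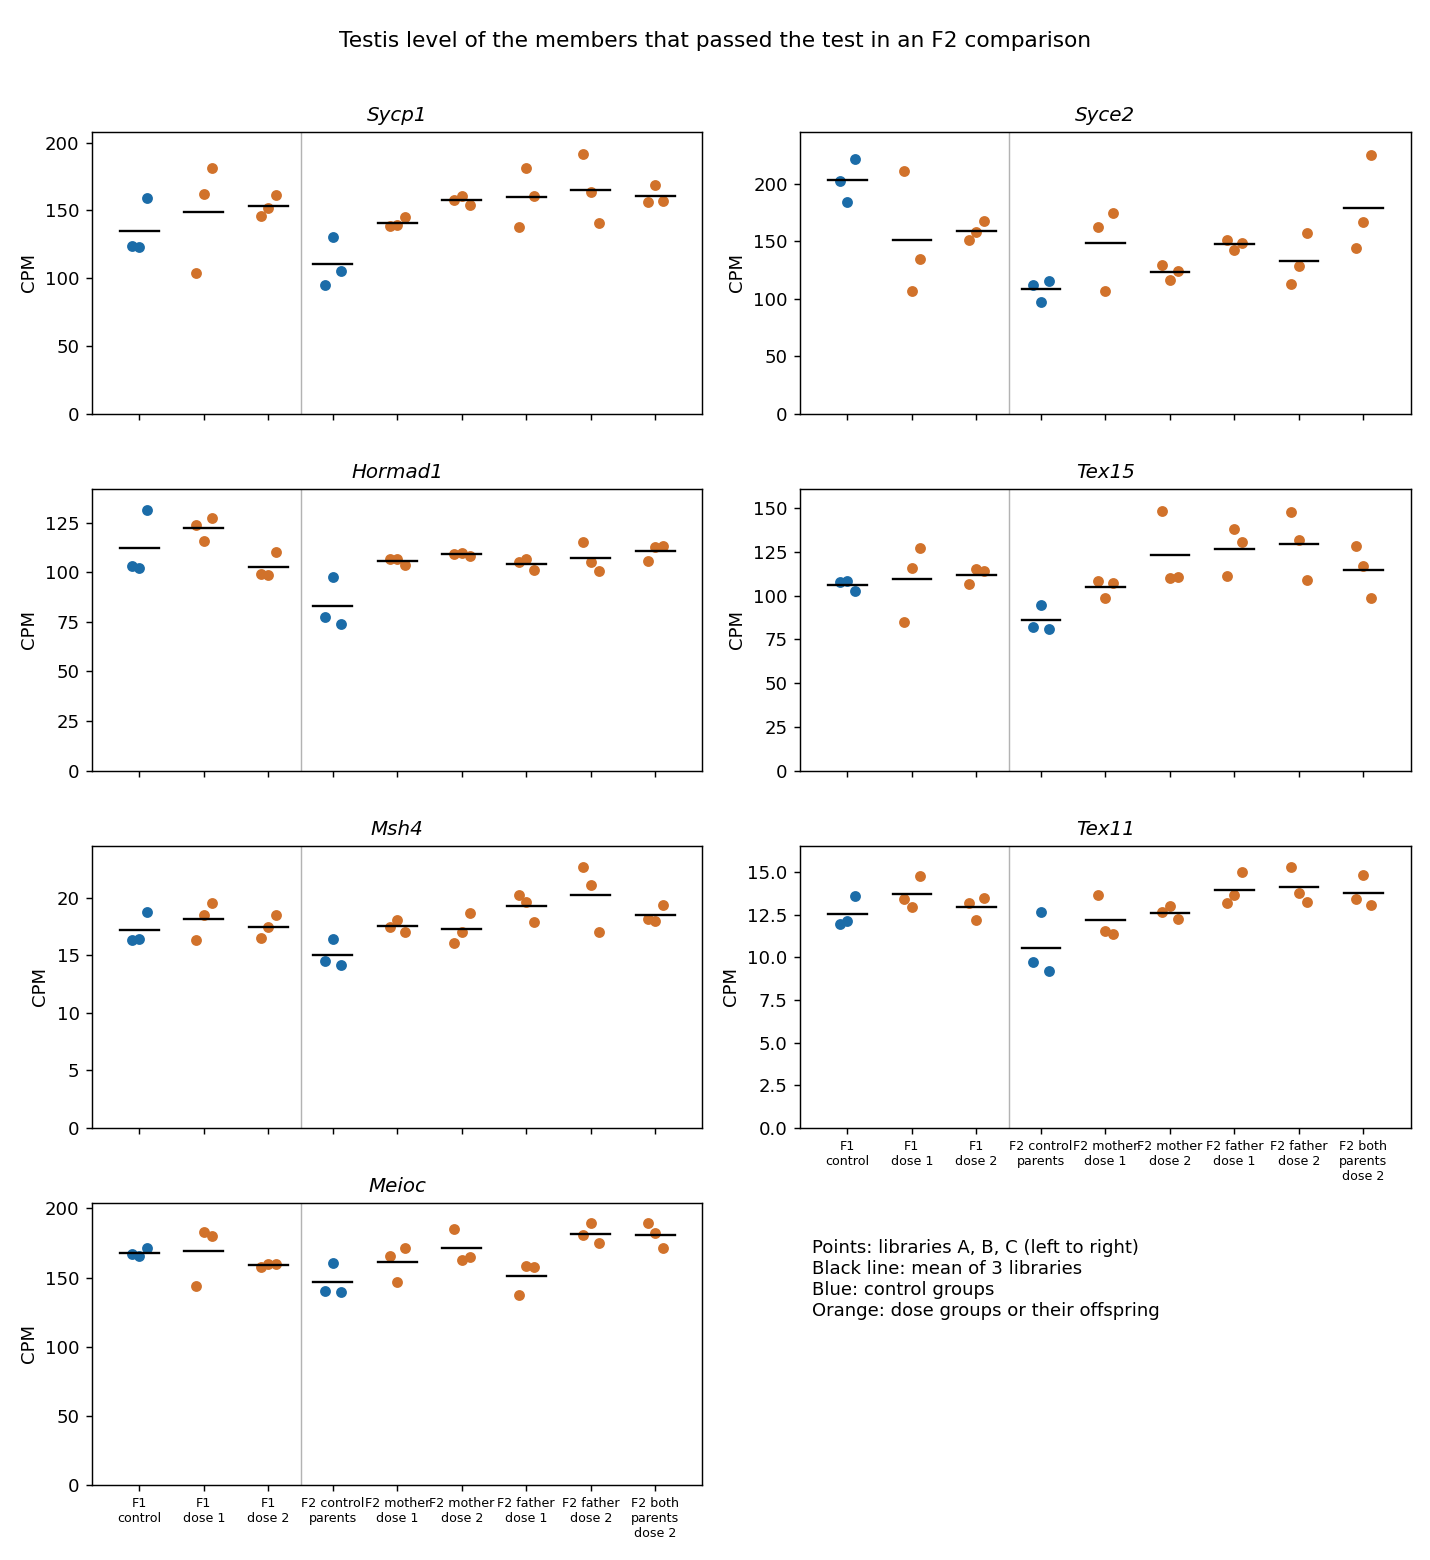
Level in CPM (y axis, from 0) of the 7 genes called in an F2 cross, in each of the 9 testis groups (x axis). Points are libraries A, B and C from left to right, black lines the group means, blue the control groups and orange the dose groups or their offspring. The 3 control parents libraries lie below every cross library for Sycp1, Hormad1 and Tex15, and the share of all genes for which this holds was not computed.

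Start-site regions are shown for those of the 7 called genes that held a match to a searched motif, so the 4 shown were chosen by their matches. Msh4 had a promoter in the table and no match, and Tex15 and Tex11 were not matched to the table. The RefSeq promoter table (GRCm38.p6, 250 bases before to 50 after the start site) held 31 of the 37 genes, with 36 promoters. The files use another build (mm39), so these coordinates belong to GRCm38.p6 alone. Searched on both strands were the letters CNCCTCAG, bound by the meiotic initiation factor STRA8, AACTGCC, bound by the spermatocyte factor A-MYB, GCGGGAA, bound by E2F factors, and TGACGTCA, the cyclic AMP response element. Capitals mark a match to one of the first 3 on either strand.
Sycp1 (chr3:102936051-102936350, minus strand): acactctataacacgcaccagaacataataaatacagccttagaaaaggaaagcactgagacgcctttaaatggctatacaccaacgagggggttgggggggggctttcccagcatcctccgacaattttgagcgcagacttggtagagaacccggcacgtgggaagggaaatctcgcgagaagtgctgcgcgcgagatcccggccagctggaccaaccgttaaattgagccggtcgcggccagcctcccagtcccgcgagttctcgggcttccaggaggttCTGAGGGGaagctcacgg
Syce2 (chr8:84872008-84872307, plus strand): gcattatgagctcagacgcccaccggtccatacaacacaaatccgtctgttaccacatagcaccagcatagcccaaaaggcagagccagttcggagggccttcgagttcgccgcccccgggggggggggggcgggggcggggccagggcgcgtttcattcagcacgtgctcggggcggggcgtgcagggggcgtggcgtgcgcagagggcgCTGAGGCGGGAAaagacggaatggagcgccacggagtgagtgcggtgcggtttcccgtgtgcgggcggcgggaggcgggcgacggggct
Hormad1 (chr3:95559427-95559726, plus strand): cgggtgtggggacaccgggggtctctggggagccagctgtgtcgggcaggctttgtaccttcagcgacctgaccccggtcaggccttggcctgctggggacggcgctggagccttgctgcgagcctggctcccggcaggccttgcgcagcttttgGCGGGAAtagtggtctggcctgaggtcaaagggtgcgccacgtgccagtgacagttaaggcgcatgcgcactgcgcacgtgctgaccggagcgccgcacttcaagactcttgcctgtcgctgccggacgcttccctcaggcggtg
Meioc (chr11:102665335-102665634, plus strand): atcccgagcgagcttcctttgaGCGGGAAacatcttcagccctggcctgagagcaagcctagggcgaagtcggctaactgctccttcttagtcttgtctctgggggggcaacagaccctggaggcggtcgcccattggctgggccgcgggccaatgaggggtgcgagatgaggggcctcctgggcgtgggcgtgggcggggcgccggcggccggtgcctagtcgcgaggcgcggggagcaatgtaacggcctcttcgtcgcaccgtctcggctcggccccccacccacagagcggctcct
In Sycp1 the capitals are the STRA8 letters on the opposite strand, 33 bases after the start site. In Syce2 they join the STRA8 letters on the opposite strand, 39 bases before the start site, and the E2F letters, 34 bases before it, which share bases. In Hormad1 and Meioc they are the E2F letters, 95 and 228 bases before the start site. Over all members, GCGGGAA occurred in 15 of 36 promoters (41.7%), those of 14 genes, against 4.6% of the 32851 promoters in the table and 6.97% of the 18600 promoters of genes tested in F2 testis. CNCCTCAG occurred in 6 of 36 (16.7%, against 7.94% and 9.17%), namely in Hormad2, Msh5, Prdm9, Syce2, Sycp1 and Tex12. AACTGCC occurred in 1 (Tex14, against 4.12% of all) and TGACGTCA in 0 (against 1.79%). A match describes the letters in this window and is not a measure of binding.

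Sycp1 encodes the transverse filament of the synaptonemal complex, the protein that bridges the paired axes. Its level in control parents was 94.9, 130 and 105 CPM in libraries A, B and C (110 ± 18.2, mean ± SD, n = 3). It was 191, 164 and 141 CPM in father dose 2, 156, 169 and 157 in both parents dose 2, 138, 181 and 160 in father dose 1 and 157, 161 and 154 in mother dose 2. Every cross library, those of mother dose 1 (139, 139 and 145 CPM) included, was above the highest control library. The log2 fold change against control parents was 0.58 ± 0.12 (± SE; adjusted p = 0.0124, edgeR) in father dose 2, 0.54 ± 0.12 (0.0162) in both parents dose 2, 0.53 ± 0.12 (0.0146) in father dose 1 and 0.51 ± 0.12 (0.0321) in mother dose 2. In mother dose 1 it was 0.34 ± 0.12 with an adjusted p of 0.154. Of the F1 control libraries, at 123, 123 and 159 CPM, 1 was above the highest F2 control. With control A left out, the father dose 2 value became 0.49 (adjusted p = 0.0876), without control C 0.55 (0.0814) and without library A of the cross 0.47 (0.0805).

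Syce2 encodes a central element protein, which stabilises the complex between the axes. It was at 112, 97.6 and 116 CPM in control parents and 144, 167 and 225 CPM in both parents dose 2, a log2 fold change of 0.71 ± 0.17 (adjusted p = 0.0326, edgeR). Library C of that cross was the highest of the 18 F2 libraries, and without it the value was 0.53 with an adjusted p of 0.0861. The same library had the highest F2 sum of 8 elongating spermatid markers, 22952 CPM, where the other F2 cross libraries had 15111 to 20225 and control parents 16892 to 19215; its part in the value was not tested. Of the 15 cross libraries, 13 were above all 3 controls, but Syce2 was not called in the other 4 crosses, where log2 fold changes were 0.18 to 0.44. In F1 control it stood at 203, 185 and 222 CPM, above every F2 control.

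The other 5 synaptonemal complex genes were called in no cross. Sycp2, an axial element gene, was at 270, 390 and 245 CPM in control parents and 438, 418 and 388 CPM in father dose 2, where control B fell among the cross libraries (0.46 ± 0.14, adjusted p = 0.0587). Syce3, another central element gene, had values below 0 in all 5 crosses. It had 56.8, 47.7 and 51.2 CPM in control parents and 34.8, 27.2 and 36.3 CPM in father dose 1, without overlap (-0.67 ± 0.19, adjusted p = 0.0688). In both parents dose 2 Syce3 was at 38.5, 44.5 and 65.7 CPM, on both sides of the controls. Sycp3, Syce1 and Tex12 had log2 fold changes between -0.04 and 0.34 over the crosses. Sycp2 and Syce3 were chosen for mention after their values were seen.

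Hormad1 encodes a HORMA-domain protein that coats unpaired axes and is removed as they pair. Control parents libraries had 77.5, 97.3 and 73.7 CPM (82.8 ± 12.7, mean ± SD, n = 3). The crosses had 106, 112 and 113 CPM in both parents dose 2, 115, 105 and 101 in father dose 2, 105, 107 and 101 in father dose 1, 109, 109 and 108 in mother dose 2 and 106, 107 and 104 in mother dose 1. Here too all 15 cross libraries were above the controls, and the cross libraries spanned 101 to 115 CPM, a narrower range than the 3 controls. The log2 fold change was 0.41 ± 0.08 (adjusted p = 0.0121) in both parents dose 2, 0.37 ± 0.08 (0.0226) in father dose 2, 0.33 ± 0.08 (0.0333) in father dose 1 and 0.39 ± 0.08 (0.0222) in mother dose 2, by edgeR. It was 0.34 ± 0.08 with an adjusted p of 0.0634 in mother dose 1. The F1 control libraries, at 103, 102 and 131 CPM, were all above the F2 controls. Hormad2, a relative of Hormad1, and Trip13, the ATPase that removes HORMA proteins from the axis, were called in no cross, with log2 fold changes of 0.02 to 0.30.

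Tex15 encodes a large protein needed to repair meiotic breaks in the male. It was at 81.7, 94.8 and 80.9 CPM in control parents, 111, 138 and 130 in father dose 1 and 148, 132 and 109 in father dose 2. The log2 fold change was 0.56 ± 0.13 (adjusted p = 0.0258, edgeR) in father dose 1 and 0.59 ± 0.13 (0.0224) in father dose 2. Each of the 15 cross libraries was again above the 3 controls. In the mother dose 2 cross the values were 148, 110 and 111 CPM (0.52 ± 0.13, adjusted p = 0.0567), and in both parents dose 2 128, 117 and 98.8 CPM (0.41 ± 0.13, 0.0805). The F1 control libraries, at 103 to 108 CPM, were all above the F2 controls.

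The other strand exchange genes, among them the recombinase gene Dmc1 and the genes of its HOP2-MND1 cofactor, Psmc3ip and Mnd1, were not called. Psmc3ip was at 92.6, 70.8 and 111 CPM in control parents and 68.7, 67.1 and 76.2 CPM in father dose 2, so that control B lay within the cross (-0.37 ± 0.14, adjusted p = 0.104). By the GENCODE M21 gene models, 21.2% of its exon length overlaps Mlx on the other strand, so its counts are uncertain where the counting did not use strand. The same holds for Sycp3, of which 52.2% overlaps Chpt1, and for the break gene Rec114, of which 26.9% overlaps Nptn, both on the other strand. Spata22 overlaps the gene model Gm49340 over 80.5% of its exon length on the same strand, so its counts are uncertain however strand was used.

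Msh4 and Tex11 act in crossover formation, Msh4 in a complex with Msh5 that holds recombination intermediates and Tex11 as an X-linked partner of it. Msh4 was at 14.5, 16.4 and 14.1 CPM in control parents and 22.7, 21.1 and 17.0 CPM in father dose 2 (0.43 ± 0.10, adjusted p = 0.0252, edgeR), with no overlap. In father dose 1 it was at 20.2, 19.6 and 17.9 CPM (0.36 ± 0.10, adjusted p = 0.0531). Tex11 was at 9.72, 12.7 and 9.23 CPM in control parents and 15.3, 13.8 and 13.3 CPM in father dose 2 (0.42 ± 0.12, adjusted p = 0.0485). That call of Tex11 was lost without any 1 of the 6 libraries except control B, and without the low-count filter (adjusted p = 0.0513). Of the F1 control libraries, 2 were above every F2 control for Msh4 and 1 for Tex11. Msh5, Mlh3 and Rnf212 had log2 fold changes of -0.16 to 0.17 over the crosses.

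Meioc, whose product works with an RNA helicase to keep germ cells in the meiotic programme, was at 140, 161 and 140 CPM in control parents. It rose to 181, 189 and 175 CPM in father dose 2 (0.30 ± 0.08, adjusted p = 0.0418, edgeR) and to 190, 182 and 171 CPM in both parents dose 2 (0.29 ± 0.08, adjusted p = 0.0477), without overlap in either. The latter call was lost with the replicate letter as a block (0.29, adjusted p = 0.0562). F1 control libraries had 166 to 171 CPM of Meioc, all above the F2 controls. In father dose 1 Meioc was at 137, 158 and 157 CPM, across the range of the controls (0.04 ± 0.08, adjusted p = 0.869). Tex14, needed for the bridges between germ cells, and Ccna1, the cyclin that drives exit from male prophase, had log2 fold changes of -0.12 to 0.14 in the crosses and were not called.

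No cohesin, double-strand break or telomere attachment gene was called in a testis comparison. Of each role, the gene with the smallest unadjusted p over the 9 testis comparisons was Smc1b, Prdm9 and Terb1. Terb1, which joins telomeres to the nuclear envelope, was at 32.5, 36.9 and 32.8 CPM in control parents and 39.8, 39.8 and 38.6 CPM in father dose 2 (0.21 ± 0.08, adjusted p = 0.12, edgeR). The groups did not overlap, but the difference did not pass the test. Spo11, the enzyme that makes the breaks, had an adjusted p of 0.0886 in both parents dose 2 (0.29 ± 0.10).

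Father and mother as the dosed parent were also compared directly at dose 2. In that comparison of the father dose 2 with the mother dose 2 cross, 0 of the 37 genes were called by edgeR while 0.109% of all genes were. Of the 37, 1 (Msh4) had an unadjusted p under 0.05, beside 7.14% of all genes. The differences were 0.07 ± 0.12 for Sycp1, -0.03 ± 0.08 for Hormad1, 0.07 ± 0.13 for Tex15, 0.23 ± 0.10 for Msh4 (adjusted p = 0.639), 0.16 ± 0.12 for Tex11 and 0.09 ± 0.08 for Meioc. DESeq2 also called 0 of the 37 there. A call made for one of these 6 genes in one cross and missed in the other therefore does not show that the crosses differ.

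**Figure D2:**
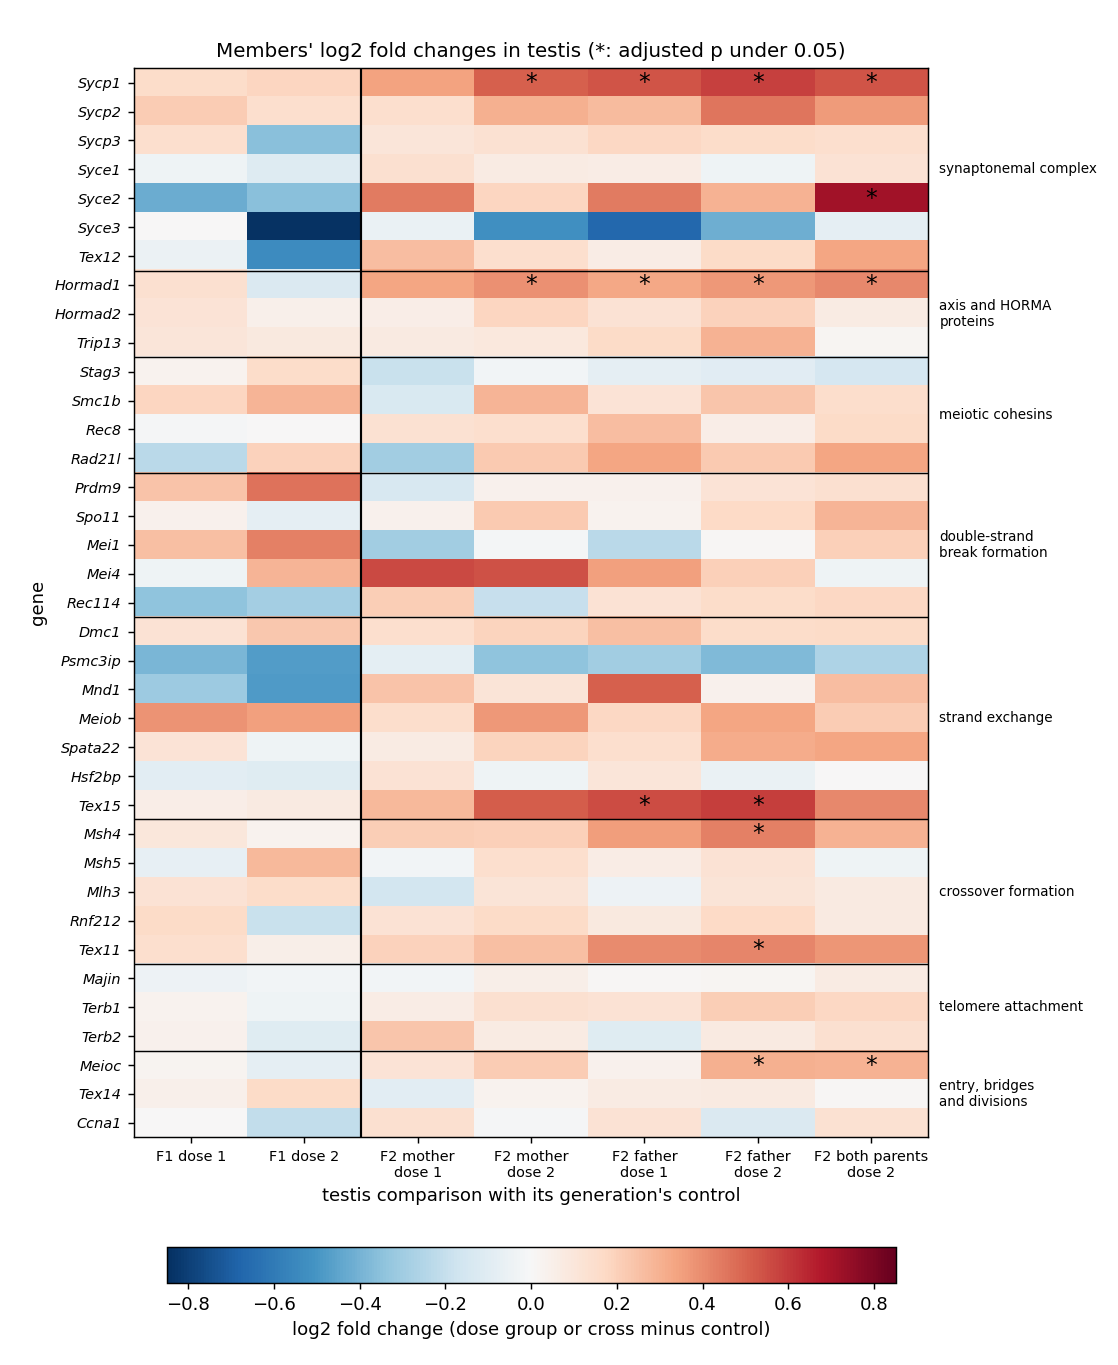
Log2 fold change of each of the 37 genes (rows, grouped by role) in the 7 testis comparisons with a control group (columns), on a colour scale from blue (lower) to red (higher). Stars mark the 15 calls at an adjusted p under 0.05, all of them in F2 crosses and all higher; the columns to the right of the vertical line share their 3 control libraries.

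A wider list of meiotic genes was read beside the 37. Of its 66 names, 54 are in the tables and 53 were tested in testis. Calls were 0 in mother dose 1 (beside 0.4% of all genes higher and 0.416% lower) and 0 in father dose 1 (beside 2.22% and 1.75%). Mother dose 2 had 1 higher (beside 0.8%) and 0 lower (beside 0.899%). Father dose 2 had 4 higher (beside 2.94%) and 2 lower (beside 2.39%). Both parents dose 2 had 1 higher (beside 1.78%) and 0 lower (beside 2.81%). These calls use the same 3 control parents libraries as those of the 37. The crossover gene Rnf212b, a relative of Rnf212, accounted for the calls outside father dose 2. Its mean level was 5.18 CPM in control parents, 9.12 in mother dose 2, 9.78 in father dose 2 and 10.4 in both parents dose 2, with log2 fold changes of 0.81 ± 0.20 (adjusted p = 0.0436, edgeR), 0.92 ± 0.20 (0.0187) and 1.00 ± 0.20 (0.0103). In father dose 2, Ankrd31, which helps place the breaks, rose by 0.43 ± 0.12 (adjusted p = 0.0430, edgeR). Mcmdc2, needed for strand exchange, rose by 0.46 ± 0.13 (0.0446) and 4930447C04Rik (Six6os1), a central element gene, by 0.41 ± 0.12 (0.0492). Rpa1, which covers single-stranded DNA, fell by 0.23 ± 0.06 (adjusted p = 0.0396, edgeR) and Plk1, a kinase of the divisions, by 0.23 ± 0.07 (0.0488). The list's median log2 fold change over the 5 crosses was 0.02 to 0.10.

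In F1 testis, where the animals themselves were dosed, 0 of the 37 genes were called at either dose by edgeR. At dose 1, 2 of the 37 had an unadjusted p under 0.05 (5.41%, beside 8.55% of all genes), and 0.0317% of the 18923 genes tested were called. At dose 2, 12 of the 37 had an unadjusted p under 0.05 (32.4%, beside 23.6% of all genes), and 2.21% of all genes were called. DESeq2 called 4 at dose 2 (11.1% of the 36 members it gave an adjusted p, beside 11.7% of all genes) and 0 at dose 1 (beside 0.738%). Between dose 2 and dose 1, 0 were called (0.227% of all genes), 7 had an unadjusted p under 0.05 (18.9%, beside 20.3% of all genes), and DESeq2 called 2 (5.71% of 35, beside 8.3%). Both shares are below those of all genes.

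The 12 genes were split by direction, and their names are given here after their values were seen. Lower at dose 2 were Syce3, Tex12, Mnd1, Psmc3ip, Sycp3 and Ccna1, with log2 fold changes of -0.84 to -0.21. Higher were Tex14, Msh5, Smc1b, Meiob, Mei1 and Prdm9, with 0.16 to 0.46. Psmc3ip was at 120, 114 and 133 CPM in F1 control, 107, 79.8 and 90.9 at dose 1 and 75.8, 87.6 and 100.3 at dose 2. All libraries of both doses were below the controls, and the log2 fold change was -0.39 ± 0.12 at dose 1 (adjusted p = 0.434, edgeR) and -0.47 ± 0.12 at dose 2 (0.0679). Prdm9, whose histone methylation sets the sites of breaks, was at 5.23, 5.33 and 5.67 CPM in control and 8.89, 6.92 and 6.56 at dose 2 (0.46 ± 0.14, adjusted p = 0.09). Smc1b, the meiotic form of a cohesin ring subunit, was at 182, 190 and 198 CPM in control and 227, 235 and 235 at dose 2 (0.29 ± 0.09, adjusted p = 0.108). For Prdm9 and Smc1b the dose 2 libraries were all above the controls. Of the 37 genes, 9 had all dose 2 libraries above all controls (24.3%, beside 17.5% of all genes) and 7 had all of them below (18.9%, beside 17.9%). Sycp1, Hormad1 and Tex15, called in the F2 crosses, had values of 0.18 ± 0.19, -0.13 ± 0.10 and 0.07 ± 0.12 at F1 dose 2.

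The 6 genes with lower values are all among the short ones, and of the 6 with higher values 5 are longer, while Meiob (1801 bases) is short. Over all genes tested at F1 dose 2, the median log2 fold change was -0.20 in the shortest of 4 equal classes of exon length (up to 2184 bases), -0.04 and 0.05 in the middle classes and 0.14 in the longest (from 6168 bases). Of the 37 genes, 16 fell in the shortest length class, with a median of -0.20, 8 in the next (0.04), 10 in the third (0.22) and 3 in the longest (0.07). The shortest of the 37, Syce3 (553 bases), Mnd1 (875 bases) and Tex12 (1016 bases), had the lowest values, -0.84, -0.48 and -0.53. The dose 2 against dose 1 comparison had the same run over all genes, from -0.19 in the shortest to 0.11 in the longest class. Among the F2 crosses, the medians of the shortest and longest class were 0.12 and -0.09 in mother dose 1, 0.09 and -0.02 in both parents dose 2, 0.05 and -0.02 in mother dose 2 and 0.02 and -0.02 in father dose 1, so that the longest class was the lower one, unlike in F1 dose 2. In father dose 2 the 4 class medians were between -0.04 and 0.02, without a run in one direction. Whether length, or what goes with it, bears on the F1 or F2 values was not tested.

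**Figure D3:**
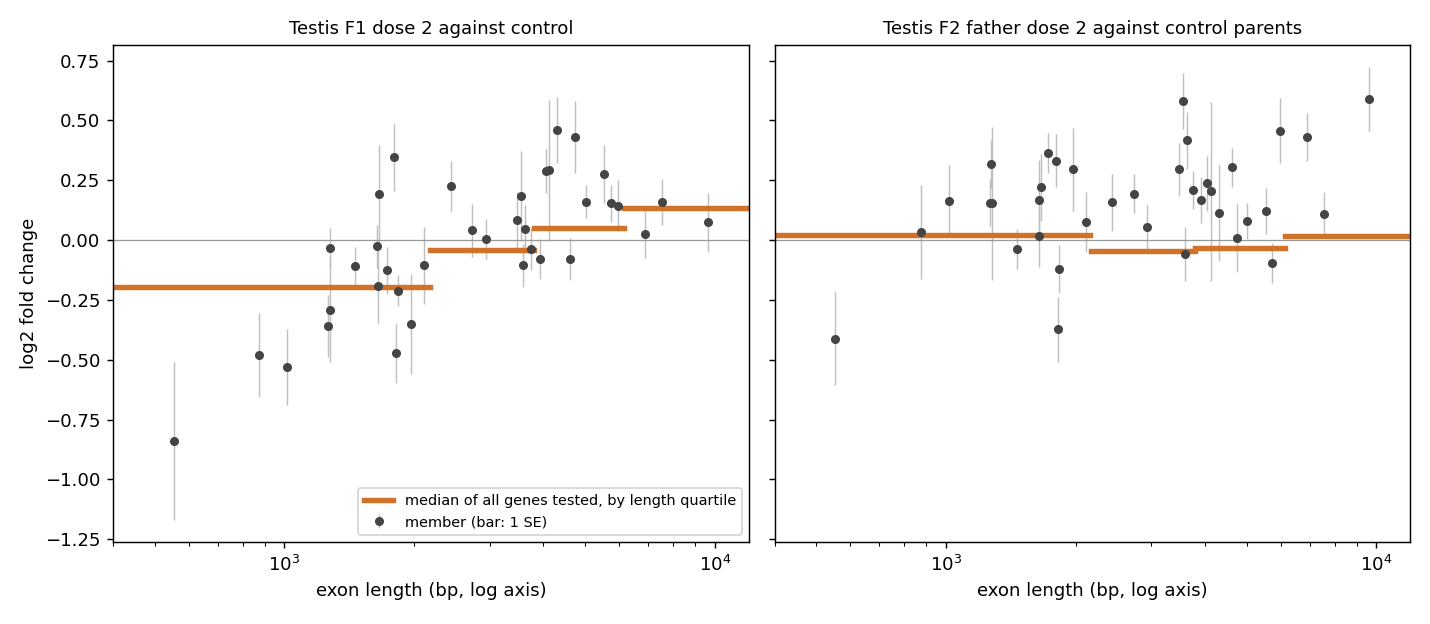
Log2 fold change (y axis) against exon length in bases (x axis, log scale) for the 37 genes, with bars of 1 SE, at F1 dose 2 (left) and in the F2 father dose 2 cross (right). Orange lines give the median of all genes tested in 4 equal classes of length, which run from -0.20 to 0.14 on the left and stay between -0.04 and 0.02 on the right.

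Within F1 testis, control library C and dose 1 library A had the highest sums of the elongating spermatid markers, 27985 and 28556 CPM, where the other 7 had 17531 to 23000.4. Control C held the highest F1 control value for 24 of the 37 genes. Of these, dose 1 A was the highest of its group for 7, Syce2 and Syce3 among them, and the lowest for 10, Sycp1 among them. Without both, a setting chosen after the data were seen, 4 of the 37 genes were called at dose 1 (3 higher, 1 lower), which is 10.8%, beside 2.38% of all genes. At dose 2 there were 3 (all higher; 8.11%, beside 8.79%), and in dose 2 against dose 1 also 3 (all lower; 8.11%, beside 3.52%). Without dose 1 A alone, 3 were called at dose 1 (8.11%, beside 1.64%).

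In ovary, 0 of the 37 genes were called in any of the 7 comparisons with control by edgeR, where 0% of all genes were called in 5 of them, 0.00573% in father dose 2 and 0.688% in both parents dose 2. Between 1 and 4 of the members tested had an unadjusted p under 0.05 in each comparison, 3.45 to 13.8% of them, beside 5.27 to 24.5% of all genes. The share of members was above that of all genes in mother dose 1 (13.8%, beside 9.2%) and below it in the other 6. DESeq2 called 1, in father dose 2 (7.69% of the 13 members it gave an adjusted p, beside 2.63%). The low-count filter passed 25 of the 37 genes in F1 ovary and 29 in F2 ovary, against all 37 in testis. Syce3, Hormad2, Spo11, Mei1, Terb2, Meioc and Ccna1 failed it in both generations, Tex12, Hormad1, Rad21l, Spata22 and Rnf212 in F1 alone, and Mei4 in F2 alone. A gene that passed did so on the strength of the groups in which it was high.

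The smallest p-values in ovary belonged to Tex14 and Hormad1, named here after their values were seen. Tex14 was at 10.0, 5.61 and 7.41 CPM in F2 control parents and 15.01, 20.5 and 20.7 CPM in father dose 2 (1.29 ± 0.34, adjusted p = 0.184, edgeR). The father dose 2 libraries were all above the controls, and their sums of 10 oocyte markers, 541 to 596 CPM, were also above those of the controls, 401 to 470 CPM. Their part in the Tex14 value was not tested. Hormad1 had 35, 6 and 12 counts in control parents and 0, 4 and 2 in mother dose 2 (-3.07 ± 0.85, adjusted p = 0.731), so this difference rests on few counts, with the most in control A. In father dose 1 it had 2, 1 and 3 counts (adjusted p = 0.365).

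Ccna1 and Rec8 each had ovary libraries that stood apart. Ccna1 had 65 and 47 counts in F1 dose 2 libraries A and B (1.56 and 1.04 CPM) and 0 to 9 counts in the other 25. The same 2 libraries had the highest sums of 6 markers of oviduct and ciliated epithelium, 1169.8 and 436 CPM, with Ovgp1 at 1008 and 295 CPM and Foxj1 at 77.6 and 63.1 CPM. The next highest sum, 149 CPM in F1 control A with Ovgp1 at 144 CPM, went with 1 count of Ccna1, and the remaining 24 libraries had 4.3 to 23.4 CPM. Whether tissue next to the ovary carried the Ccna1 counts was not tested. Without these 3 libraries, a setting added after the data were seen, 0 of the 37 genes were called in the F1 ovary comparisons. Rec8, the meiotic kleisin subunit of cohesin, had 342 counts (6.39 CPM) in both parents dose 2 library C and 201 (3.59 CPM) in control parents A, against 0.713 to 2.67 CPM elsewhere.

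**Figure D4:**
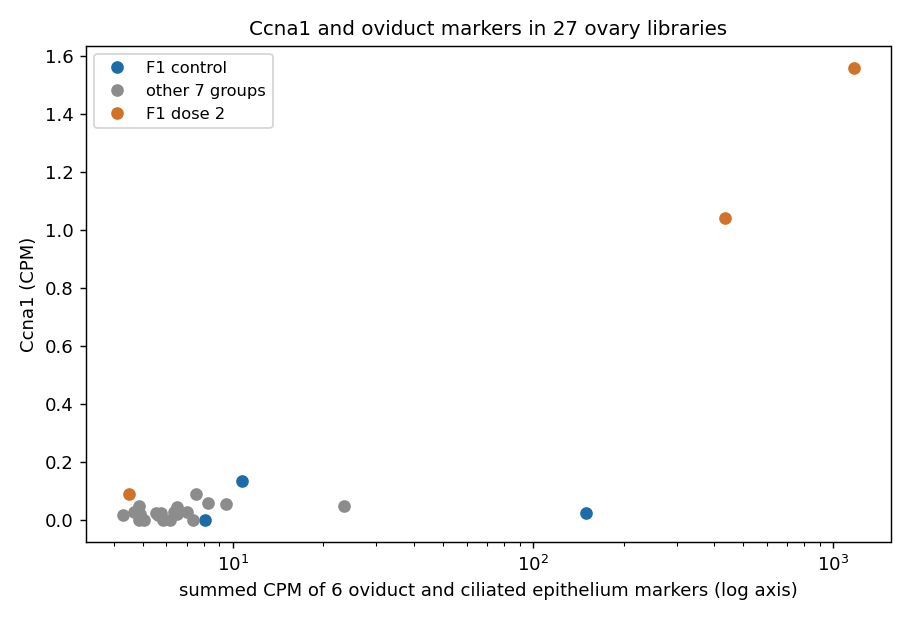
Ccna1 level in CPM (y axis) against the summed CPM of 6 oviduct and ciliated epithelium markers (x axis, log scale) in the 27 ovary libraries (orange F1 dose 2, blue F1 control, grey the other 7 groups). F1 dose 2 libraries A and B, with 1.56 and 1.04 CPM of Ccna1, lie to the upper right; F1 control A, with a marker sum of 149 CPM, has a Ccna1 level like the rest.

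Between the tissues, the 12 libraries with neither own nor parental dosing (F1 control and F2 control parents) were compared. Of the 37 genes, 36 were higher in testis by edgeR, which is 97.3%, beside 45.1% of the 20044 genes tested that were higher there. The median log2 fold change over the 37 was 6.44. It was widest for genes with almost no ovary counts, and Mnd1 (0.28 ± 0.24, adjusted p = 0.294) was the gene not called. The levels of Prdm9 (7.24 CPM in testis, 5.36 in ovary, 0.44 ± 0.13) and Trip13 (11.8 and 8.34 CPM, 0.52 ± 0.14) differed little and their libraries overlapped. When libraries were scaled by their totals alone, the median of all genes moved from -0.01 to -0.56 and these 3 genes turned to -0.27 (Mnd1), -0.11 (Prdm9) and -0.03 (Trip13), none of them called. Rec114 also lost its call there (0.63, adjusted p = 0.102), which left 33 of the 37 called. The testis and ovary values here come from the 12 libraries scaled together. Relative to the median of all genes, all 37 were higher in testis under that scaling, RLE size factors and TMM alike. These data hold whole tissues, so a testis value averages over all its cells.

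Per kilobase of exon (GENCODE M21 lengths, matched for all 37), the highest median levels over the 27 testis libraries were those of Syce1 with 208, Sycp3 with 105, Stag3 with 92.6 and Syce3 with 84.8 CPM per kilobase. Syce1, Sycp3 and Syce3 are synaptonemal complex genes and Stag3 is a meiotic cohesin. The lowest were Mei4 with 0.152, Rec114 with 1.01, Mei1 with 1.323 and Prdm9 with 1.49, all of them double-strand break genes. The break enzyme gene Spo11, at 13.7, stood above the other 4 of that role. In testis each of the 37 genes had counts in every library.

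In ovary, scaled apart from testis, the order of the genes was another. The highest medians were those of Syce2 with 5.50, Tex15 with 4.87, Mnd1 with 4.47, Psmc3ip with 3.69, Mlh3 with 3.57 and Trip13 with 2.87 CPM per kilobase. Tex15 ranged from 22.1 to 72.9 CPM over the 27 ovary libraries and Mlh3 from 18.1 to 32.0 CPM, against 80.9 to 148 and 37.4 to 53.3 CPM in testis. Syce2 had 327 to 830 counts per ovary library. Of the other synaptonemal complex genes, Sycp1 had 7 to 32, Syce1 12 to 63 and Syce3 0 to 2, with 0 in 19 of 27 libraries. Meioc had 0 to 7 counts per ovary library and Terb2 0 to 5.

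**Figure D5:**
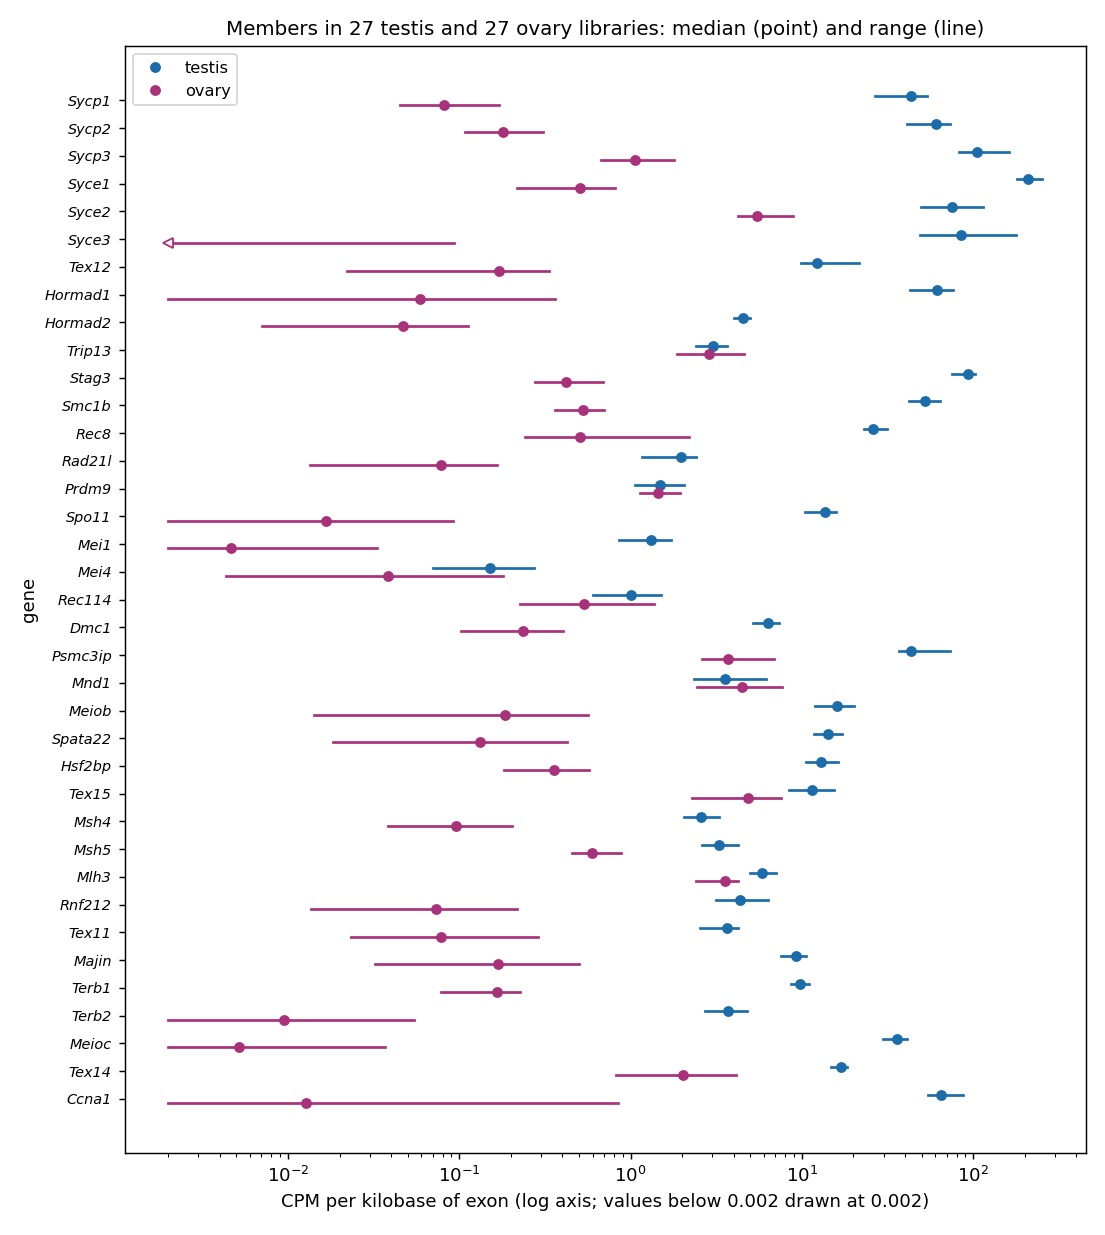
Level per kilobase of exon (x axis, log scale, CPM per kilobase) of the 37 genes in 27 testis (blue) and 27 ovary (purple) libraries. Points are medians and lines run from the lowest to the highest library; the open triangle is a median of 0 (Syce3 in ovary). The libraries of each tissue were scaled separately. The ranges of the tissues overlap for Trip13, Prdm9, Mei4, Rec114 and Mnd1.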

How the data were processed

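Messenger RNA libraries of testis and ovary were made with a stranded kit and read at 100 nt, per the labels' protocols. The values the authors deposited are raw whole-number counts of each gene. The submitters' processing notes name featureCounts 2.0.3, TopHat2 2.1.1 and Bowtie2 2.4.5, build mm39, SAMtools 1.13, bcl2fastq 2.20, FastQC 1.19 and DESeq2 1.32.0. How strand was treated, and which annotation was used, is not stated in these sources, so overlapping genes are uncertain. Of the 26264 rows per table, 133 have a symbol but no gene ID (0.319 to 0.377% of testis counts, 0.0591 to 0.0861% of ovary counts) and were kept.

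Tests used edgeR 4.0.16 in R 4.3.3 (robust quasi-likelihood, TMM factors, its low-count filter with a minimum count of 10) over all genes, with Benjamini-Hochberg adjustment and a threshold of 0.05. For each tissue there was 1 fit of the F1 libraries and 1 of the F2 libraries, and the tissues were compared in a fit of the 12 undosed libraries. There were 17 comparisons. The steps were tested on simulated data. No libraries agreed within sampling noise (lowest chi-square per gene 3.24).

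The members and lists were chosen with earlier results of these data known. Named with all values are members called in a comparison within a tissue and, for a role without one, its member with the smallest p in testis. Members highest or lowest in a tissue or failing the filter are named by level, and up to 6 called genes of the wider list by smallest adjusted p. Other genes given with values, among them Spo11 and Psmc3ip in F2 testis and Rec8 in ovary, fall outside these rules. They were chosen after their values were seen, whether or not this is said beside them. Alternatives were DESeq2 1.42.0, RLE factors, no filter, other libraries in the fit, each library left out and the replicate letter as a block. Libraries with the same letter deviated together (each correlation above 0.1) only in ovary F1 dose 1 (0.263, 0.233 and 0.415) and ovary F2 mother dose 1 (0.256, 0.310 and 0.100) against control, and the labels do not say what a letter shares.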

Additional observations from a re-analysis of the deposited data

Results flagged for a closer look

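In 5 cases a gene's F2 testis libraries all lay on one side of control parents and its ovary libraries of the same cross all on the other side. Over all genes, 9.3 to 14.6% lay wholly above and 10.6 to 14.2% wholly below control parents in each testis cross. The share with opposite sides in the 2 tissues was not computed, so the 5 cases are not a result about the 37 genes. The difference between the tissues was not tested in any of the 5 cases, and the ovary values rest on low counts for Sycp1, Syce1 and Hormad1. Given as the log2 fold change in testis minus that in ovary, it was 0.77 for Sycp1, 0.55 for Syce1 and -0.89 for Tex14 in the mother dose 1 cross. For Hormad1 it was 3.47 in the mother dose 2 cross and 3.19 in the father dose 1 cross. The ovary counts of Hormad1 were 35, 6 and 12 in control parents, 0, 4 and 2 in mother dose 2 and 2, 1 and 3 in father dose 1.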

How the results depend on the processing

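Counts of the 37 genes called, with 1 library left out at a time, ranged from 0 to 3 in testis F1 dose 1 and F2 mother dose 1, 0 to 12 in mother dose 2, 0 to 10 in father dose 1, 0 to 14 in father dose 2, 0 to 13 in both parents dose 2, 0 to 1 in ovary F1 dose 2 and 36 to 37 between tissues. They stayed at 0 in the other comparisons. In testis, DESeq2 called 4 at F1 dose 2, 2 in F1 dose 2 against dose 1, 1 in mother dose 1, 4 in mother dose 2, 6 in father dose 1 (5 higher, 1 lower) and 8 in both parents dose 2, and in ovary 1 in father dose 2. With all 27 testis libraries in a fit, 2 were called at F1 dose 2, 2 in dose 2 against dose 1 and 1 in mother dose 2. With only the 6 libraries compared, 4 were called at F1 dose 2, 1 in mother dose 2, 1 in father dose 2 and 0 in both parents dose 2. Without both testis F1 control C and dose 1 A, chosen after the data were seen, 4 were called at F1 dose 1, 3 at dose 2 and 3 between the doses. With the replicate block, 3 were called in mother dose 2, 3 in father dose 1, 7 in father dose 2 and 3 in both parents dose 2, and 36 between tissues. The counts of testis comparisons not named under a setting are not given here, so they are not to be read as 0. The 2 ovary comparisons whose letters pair kept a count of 0. The share of all genes called changed with the setting too, so these counts alone do not set the 37 apart from other genes. The cause of these changes was not tested, beyond the smaller number of libraries where some were left out. The 15 named calls in F2 testis held in 104 of 180 refits and were lost in 76, and 0 reversed. RLE factors and DESeq2 kept all 15, among them the 6 of father dose 2, a cross whose full DESeq2 count is not listed above. Over all genes, the calls under every setting ran from 3 to 455 in testis F1 dose 1, 6 to 2132 in F1 dose 2, 3 to 1266 between the doses, 27 to 785 in mother dose 1, 40 to 1800 in mother dose 2, 224 to 1595 in father dose 1, 75 to 3122 in father dose 2, 116 to 2416 in both parents dose 2 and 0 to 93 between the dose 2 parents. In ovary they ran from 0 to 368 in F1 and 0 to 1859 in F2. Low counts limit the ovary, where 8 (F2) to 12 (F1) of the 37 genes were not tested.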
